A study of Mus musculus with 12 samples.

Results

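Among the genes that make and use NAD in the mouse liver, nascent RNA of Nampt, the enzyme that recycles nicotinamide, was highest at ZT8 and lowest at ZT0, and nascent RNA of the mitochondrial sirtuin Sirt3 was highest at ZT8 and lowest at ZT16. Both met the rule for a 24-hr rhythm before adjustment for the number of genes tested, and neither met it after adjustment. With the GC trend of the libraries removed, the highest mean of Nampt was at ZT12 and Sirt3 was no longer called, and neither was called after the libraries were rescaled to equal medians. Nadk, which turns NAD into NADP, was highest at ZT12. In the values as deposited, neither the rule for a rhythm nor a test of differences between time points called Nadk. The 8 genes described here were Nampt, Nmnat1, Nadk, Sirt1, Sirt3, Sirt6, Sirt7 and Parp1, chosen by name from the 21490 gene symbols of the table. The table listed 7 of them under these names, and Nampt under its older symbol, Pbef1. Of the 8, Nampt and Nmnat1 act in NAD synthesis, the 4 Sirt genes encode sirtuins, and Nadk and Parp1, which use NAD as a substrate, belong to neither class.

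The signal came from Nascent-Seq, which sequences RNA still bound to chromatin in purified nuclei. Wild-type C57BL/6 male mice, 3 to 6 months old, had been held for at least 2 weeks in cycles of 12 hr of light and 12 hr of darkness, and livers were taken every 4 hr. Zeitgeber time (ZT) is given in hours after lights on, so the 6 time points run from ZT0 to ZT20. There were 2 libraries at each time point and 12 in all. The study treats these as independent samples, whether a library came from 1 animal or from a pool is not given in the sources used here, and no time point served as a control. Values are in reads per base pair (rpbp), the reads over all exons of a gene divided by the length of those exons and scaled by the authors to the same number of uniquely mapped reads per library, so levels can be set side by side between genes.

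NAD is a carrier of electrons in metabolism and also a substrate that sirtuins and PARPs break down, releasing nicotinamide. In the salvage route, Nampt joins nicotinamide to a ribose phosphate to make nicotinamide mononucleotide, and the Nmnat enzymes turn that product into NAD. Sirtuins remove acetyl and related groups from proteins in an NAD-dependent reaction. SIRT1, SIRT6 and SIRT7 are found mainly in the nucleus and SIRT3 in mitochondria. SIRT1 is known to act with the CLOCK:BMAL1 complex of the circadian clock, and Nampt is known as a clock-driven gene whose promoter region can carry E-boxes, the sequence that CLOCK:BMAL1 binds.

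The 5 hepatocyte markers had a summed level of 626 to 1860 rpbp per library (median 1255), against 17.9 to 49.8 for 4 Kupffer cell markers, 8.5 to 20.7 for 4 endothelial markers and 5.4 to 9.4 for 4 stellate cell markers. The 4 cholangiocyte markers summed to at most 2.2 rpbp and the 4 lymphocyte markers to at most 2.8 in any library. Fewer cells of a type and less RNA per cell cannot be told apart in these bulk samples. Summed rpbp over all symbols was 118342 to 160545 per library. ZT8 and ZT20 libraries were run in 2 lanes and the others in 1, so lane number and time point cannot be told apart. The median gene of ZT16 replicate 2 deviated from its mean over the libraries by -0.20 on the log2 scale, the lowest of the 12. The libraries also differed in GC trend, given as the log2 deviation of genes in the highest exon GC bin minus that in the lowest bin. It was -0.14 and -1.21 in the 2 libraries of ZT8 and -0.08 and -0.60 in those of ZT20, against 0.51 and 0.40 at ZT12, 0.57 and 0.11 at ZT16, 0.20 and 0.02 at ZT0, and 0.15 and -0.01 at ZT4. All 4 libraries run in 2 lanes were negative and all 4 of ZT12 and ZT16 positive, so GC trend went in part with lanes and time of day. These cannot be fully told apart. GC trend also differed between the 2 libraries of a time point, most at ZT8.

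The promoters are shown for the 2 genes called rhythmic, Nampt and Sirt3, and for the 2 genes, Sirt1 and Parp1, whose only RefSeq window holds an E-box. Each window runs from 250 bases before to 50 bases after the RefSeq start, on the strand of the gene, and the sequence is that of RefSeq (GRCm38.p6). Each matched the mm9 genome (NCBIM37) exactly once, at the position given. Capitals mark the E-box CACGTG or the letters AGGTCA, called the ROR half-site here. AGGTCA is only the core of the sites of ROR and REV-ERB receptors. The bases beside it were not part of the search, so the marked letters do not show such a site.
Nampt, chr12:33504950-33505249, plus strand: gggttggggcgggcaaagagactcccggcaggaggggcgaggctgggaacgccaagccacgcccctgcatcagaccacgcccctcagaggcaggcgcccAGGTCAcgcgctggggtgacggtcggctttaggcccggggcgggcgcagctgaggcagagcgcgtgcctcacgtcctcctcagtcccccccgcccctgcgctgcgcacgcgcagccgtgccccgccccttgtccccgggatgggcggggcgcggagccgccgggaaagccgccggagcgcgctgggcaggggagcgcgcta
Sirt3, chr7:148068159-148068458, minus strand: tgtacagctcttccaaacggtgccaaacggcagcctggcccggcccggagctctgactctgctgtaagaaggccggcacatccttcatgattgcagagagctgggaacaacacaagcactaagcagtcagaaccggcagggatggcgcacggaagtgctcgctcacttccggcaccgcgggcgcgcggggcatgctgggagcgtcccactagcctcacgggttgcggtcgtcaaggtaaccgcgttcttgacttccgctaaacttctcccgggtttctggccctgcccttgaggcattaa
Sirt1, chr10:62801734-62802033, minus strand: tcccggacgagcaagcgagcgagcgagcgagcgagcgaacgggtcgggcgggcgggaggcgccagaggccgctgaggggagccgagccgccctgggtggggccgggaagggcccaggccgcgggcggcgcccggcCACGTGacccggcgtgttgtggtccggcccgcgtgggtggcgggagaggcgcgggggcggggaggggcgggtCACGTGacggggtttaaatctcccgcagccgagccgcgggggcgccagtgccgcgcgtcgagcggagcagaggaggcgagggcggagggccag
Parp1, chr1:182498772-182499071, plus strand: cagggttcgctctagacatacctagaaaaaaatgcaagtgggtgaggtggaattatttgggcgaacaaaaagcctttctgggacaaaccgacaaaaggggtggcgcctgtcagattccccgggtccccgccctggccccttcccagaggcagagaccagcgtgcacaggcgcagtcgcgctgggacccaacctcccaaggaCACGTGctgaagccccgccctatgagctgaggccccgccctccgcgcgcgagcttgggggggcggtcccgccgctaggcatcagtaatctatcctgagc

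All 8 genes had at least 1 RefSeq promoter window, 12 windows in all. The windows were searched on both strands for the E-box CACGTG, the variant CACGTT, the D-box TTATGTAA and the ROR half-site AGGTCA, none of which overlapped another in these windows. CACGTG began at positions -115 and -43 from the start in Sirt1, at -49 in Parp1 and at -40 in the second of the 2 Nadk windows. Nampt, Sirt3, Sirt6, Sirt7 and Nmnat1 held no CACGTG in these windows. AGGTCA began at -151 in Nampt, and CACGTT and TTATGTAA were in no window of the 8 genes. Over all 32841 windows of the RefSeq table, 7.15% held CACGTG, 4.69% CACGTT, 0.938% TTATGTAA and 16.3% AGGTCA. Of the 2 genes called rhythmic, neither had an E-box within this distance of the start, and the absence of these letters says nothing of sites elsewhere. The Sirt1 window was the richest in CpG, with 47 CpG in 300 bases (79.0% GC), against 36 in Nampt and 4 in the first Nadk window.

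In mm9, Nampt spans chr12:33505340-33536473 on the plus strand with 4547 bp of merged exons, and Nmnat1 spans chr4:148842896-148859281 on the minus strand with 3037 bp. Nadk lies on the same chromosome at chr4:154936513-154965100, plus strand, with 4283 bp. The sirtuins are on the minus strand: Sirt1 at chr10:62781809-62801765 with 5331 bp, Sirt3 at chr7:148049572-148068208 with 1570 bp, Sirt6 at chr10:81084532-81090303 with 2785 bp, and Sirt7 at chr11:120479685-120486281 with 5148 bp. Parp1 is at chr1:182499106-182531385, plus strand, with 3846 bp. Exon GC content ran from 40.3% in Nampt and 42.9% in Sirt1, through 49.4% in Nmnat1 and 52.6% in Nadk and Parp1, to 53.3% in Sirt7, 55.5% in Sirt3 and 58.4% in Sirt6. The signal carries no strand, so reads of overlapping genes cannot be separated: Sirt3 shares 152 exon bases with Psmd13 and 61 with Ric8 on the other strand, and Sirt7 shares 124 with Mafg. The other 6 genes share no exon base with an annotated neighbour. Spans can still overlap outside the exons: the symbol D4Cole1e overlaps the span of Nmnat1, Capn8 that of Parp1 and Ric8 that of Sirt3. The annotated genes Gdap10 and Gm13097 lie with no gap to Nampt and Nmnat1. Whether unspliced or read-through RNA of these genes adds to the exon signal was not tested.

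Sirt3 was the highest, with a mean of 22.4 ± 3.65 rpbp (SD, n = 12), a level above 97.1% of all symbols in the table. Nadk (14.1 ± 3.81 rpbp) and Sirt7 (14.0 ± 3.01 rpbp) followed, then Nampt (6.58 ± 3.30 rpbp) and Sirt1 (4.84 ± 0.762 rpbp). Parp1 (3.45 ± 0.366 rpbp), Nmnat1 (3.38 ± 0.655 rpbp) and Sirt6 (2.29 ± 0.635 rpbp) were the lowest, Sirt6 still above 55.6% of symbols. Each gene was set against the next in this order with a two-sided sign-flip permutation test of the log2(rpbp + 1) difference within the 12 libraries, adjusted over the 7 pairs. Sirt3 was above Nadk in 11 of 12 libraries (difference 0.65 ± 0.375 SD on the log2 scale, adjusted p = 0.00342), Sirt7 above Nampt in 11 of 12 (1.07 ± 0.736, adjusted p = 0.00456), Sirt1 above Parp1 in 11 of 12 with 1 tie (0.39 ± 0.231, adjusted p = 0.00342), and Nmnat1 above Sirt6 in 10 of 12 (0.42 ± 0.438, adjusted p = 0.0188). In the remaining 3 pairs the neighbours were not separated by this permutation test: Nadk and Sirt7 (adjusted p = 0.948), Nampt and Sirt1 (0.27 ± 0.504, Nampt higher in 7 libraries and lower in 4, adjusted p = 0.137), and Parp1 and Nmnat1 (higher in 6 libraries each, adjusted p = 0.807). The libraries are not repeats of 1 condition, so this order is one over the 6 times of day.

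**Figure D1:**
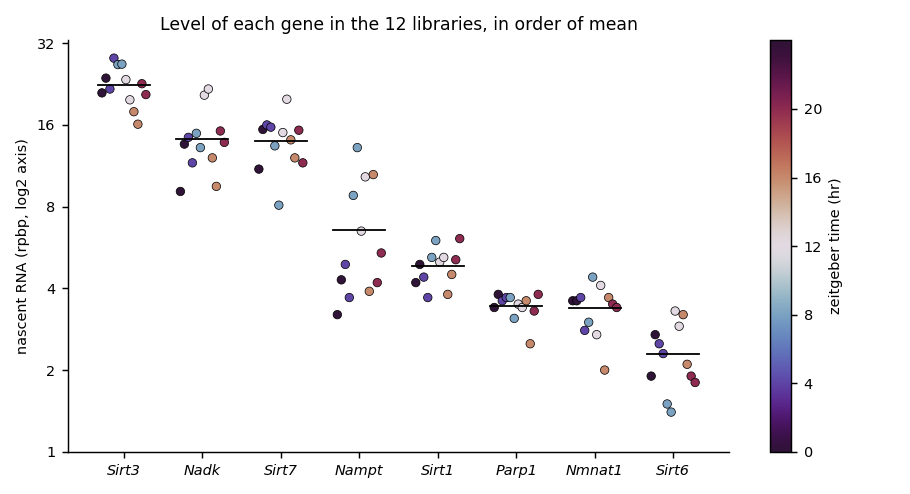
Nascent RNA of each gene (rpbp, log2 axis) in each of the 12 libraries, coloured by zeitgeber time, with a bar at the mean, in order of the mean. Sirt3 lies between 16.1 and 28.2 rpbp and Sirt6 between 1.4 and 3.3, while Nampt, from 3.2 to 13.2, has the largest ratio of highest to lowest value, 4.13.

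Time of day was tested in genes above 6 rpbp in at least 1 library, the threshold of the study, which 6284 symbols passed. Of the 8 genes, 5 passed: Sirt3, Nadk and Sirt7 were above 6 rpbp in all 12 libraries and Nampt in 5. Sirt1 passed through ZT20 replicate 2 alone, at 6.1 rpbp. The highest values of the 3 genes that did not pass were 4.4 rpbp in Nmnat1, 3.8 in Parp1 and 3.3 in Sirt6. F24 measures how much of the variance of a gene over the 12 libraries follows a 24-hr cosine. Calling a gene rhythmic required F24 above 0.45, a permutation p below 0.05 before adjustment, and a ratio of highest to lowest value above 1.5. By this rule 2 of the 5 genes were rhythmic, Nampt and Sirt3, where 15.2% of all tested genes were (956 of 6284). With so few members this count is a description. At an adjusted permutation p under 0.05, 42 of the tested genes remained and neither Nampt nor Sirt3 was among them, and neither met the stricter limits for a strong rhythm, which 6.38% of tested genes met. The moderated F-test of limma, which looks for a difference of any shape between the 6 time points on log2(rpbp + 1), called 7.65% of tested genes at an adjusted p under 0.05 and none of the 5, although Nadk and Nampt were under an unadjusted 0.05, as were 1737 tested genes.

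**Figure D2:**
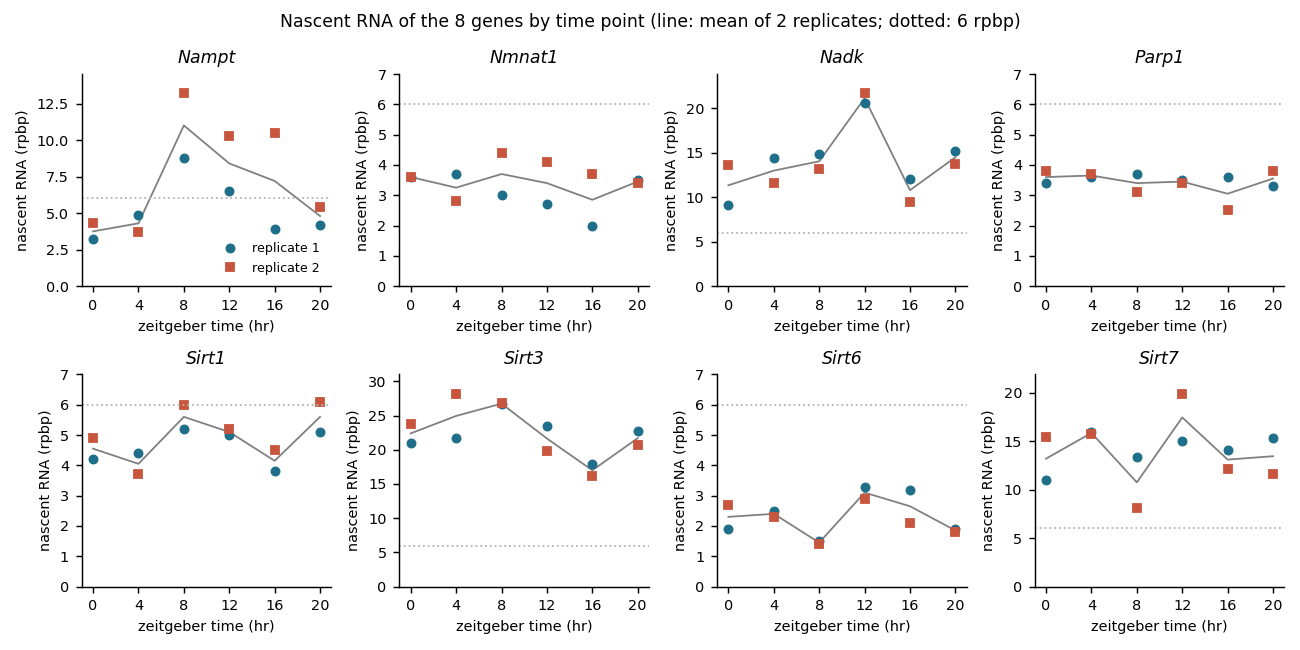
Nascent RNA (rpbp, linear axes from 0) of the 8 genes at 6 zeitgeber times, with 1 point per library and a line through the means of 2 replicates; the dotted line is the 6 rpbp threshold. The mean of Nampt is 3.75 rpbp at ZT0 and 11 at ZT8, Nadk has its highest mean, 21.2, at ZT12, and Nmnat1 and Parp1 stay under 6 rpbp throughout.

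Nampt, the rate-limiting enzyme of NAD salvage, had 3.2 and 4.3 rpbp at ZT0, 4.9 and 3.7 at ZT4, 8.8 and 13.2 at ZT8, 6.5 and 10.3 at ZT12, 3.9 and 10.5 at ZT16, and 4.2 and 5.4 at ZT20, in replicates 1 and 2. All 4 libraries of ZT8 and ZT12 were above all 6 libraries of ZT0, ZT4 and ZT20, and the 2 libraries of ZT16 lay on opposite sides, 2.69 times apart. The time points were grouped by these same values, so this separation is a description and no test. The mean at ZT8, 11 ± 3.11 rpbp (SD, n = 2), was 2.93 times that at ZT0, 3.75 ± 0.778. F24 was 0.516, with a phase at 10.8 hr and a permutation p of 0.0436 (adjusted over all tested genes, 0.287). Replicate 1 alone peaked at 9.1 hr and replicate 2 at 11.8 hr, with F24 of 0.771 and 0.764, and over the 720 orders of 6 values the exact p was 0.1 and 0.233, where the smallest possible was 0.0167. The limma F-test gave an adjusted p of 0.163 (unadjusted 0.0402).

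The call of Nampt depended on single libraries. It was lost in 9 of 12 fits that left out 1 library and kept without ZT12 replicate 1, ZT16 replicate 1 or ZT16 replicate 2, with F24 between 0.451 and 0.626 and permutation p between 0.0278 and 0.0904. Over these fits the phase stayed between 9.99 and 11.8 hr. Without ZT16 replicate 1, the low library of the split pair, the limma F-test called Nampt, at an adjusted p of 0.0381. With libraries rescaled to equal medians F24 was 0.462 and p 0.0629, and with the lanes as a block, which compares only libraries run in the same number of lanes, F24 was 0.566 and p 0.0453.

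Nmnat1, the nuclear enzyme that completes NAD from nicotinamide mononucleotide, was low at every time point. Its values were 3.6 and 3.6 rpbp at ZT0, 3.7 and 2.8 at ZT4, 3.0 and 4.4 at ZT8, 2.7 and 4.1 at ZT12, 2.0 and 3.7 at ZT16, and 3.5 and 3.4 at ZT20. The highest time-point mean, 3.70 ± 0.990 rpbp at ZT8, was 1.30 times the lowest, 2.85 ± 1.20 at ZT16, and the 2 overlapped. Time points accounted for 19.2% of the variance of Nmnat1, the smallest share of the 8 genes, against a median of 63.3% over all tested genes. At ZT8, ZT12 and ZT16, replicate 2 was above replicate 1 in both Nampt and Nmnat1.

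Nadk, the cytosolic NAD kinase, had 9.1 and 13.6 rpbp at ZT0, 14.4 and 11.6 at ZT4, 14.9 and 13.2 at ZT8, 20.6 and 21.7 at ZT12, 12.1 and 9.5 at ZT16, and 15.2 and 13.8 at ZT20. The 2 libraries of ZT12 were above the other 10, whose highest was 15.2, which is a description of these same values and no test. The mean at ZT12, 21.2 ± 0.778 rpbp, was 1.96 times that at ZT16, 10.8 ± 1.84. Time points accounted for 87.2% of the variance of Nadk, the largest share of the 8 genes, yet its F24 was 0.310 (permutation p = 0.198, phase 11.3 hr). The limma F-test gave an adjusted p of 0.125 (unadjusted 0.0240).

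Sirt3, the main deacetylase of mitochondria, had 21.0 and 23.8 rpbp at ZT0, 21.7 and 28.2 at ZT4, 26.7 and 26.8 at ZT8, 23.5 and 19.8 at ZT12, 17.9 and 16.1 at ZT16, and 22.7 and 20.7 at ZT20. Both libraries of ZT16 were below all 10 others, and both of ZT8 were above all others but ZT4 replicate 2. These time points were picked by the same values, so this is a description and no test. The range was narrow: the mean at ZT8, 26.8 ± 0.0707 rpbp, was 1.57 times that at ZT16, 17.0 ± 1.27. F24 was 0.598, with a phase at 5.26 hr and a permutation p of 0.0182 (adjusted 0.204). Replicate 2 alone had an F24 of 0.952 with a phase at 4.4 hr (exact p = 0.0333), and replicate 1 alone 0.412 at 7.4 hr (exact p = 0.4). The limma F-test gave an adjusted p of 0.269.

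The call of Sirt3 held in 10 of 12 fits without 1 library, and was lost without ZT4 replicate 2 (permutation p = 0.0558) and without ZT16 replicate 2 (p = 0.0617). It was also lost after rescaling to equal medians (F24 0.499, permutation p = 0.0523). ZT16 replicate 2 was the library whose median gene was lowest. With the lanes as a block F24 was 0.691 and p 0.00634. The hepatocyte marker sum was also low at ZT16, at 788 and 694 rpbp, and its lowest value was 626 in ZT0 replicate 1, where Sirt3 was at 21.0 rpbp. The 5 markers did not move alike. At ZT16 Alb averaged 221 rpbp (527 over the 12 libraries), Ttr 65.7 (131) and Tat 116 (239). Cps1 was at 248 (247) and Apoa1 at 90.3 (95.8). Of the 5, 1 passed the limma F-test, Tat (adjusted p = 0.0482). The part of cell makeup in the Sirt3 values was not tested.

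Of the nuclear sirtuins, Sirt1 had 4.2 and 4.9 rpbp at ZT0, 4.4 and 3.7 at ZT4, 5.2 and 6.0 at ZT8, 5.0 and 5.2 at ZT12, 3.8 and 4.5 at ZT16, and 5.1 and 6.1 at ZT20. Its time-point means lay between 4.05 ± 0.495 rpbp at ZT4 and 5.60 at ZT8 and ZT20, so the values had 2 raised time points 12 hr apart, and F24 was 0.0383 (permutation p = 0.836). ZT8 and ZT20 were also the time points run in 2 lanes, so lanes and time of day cannot be told apart in these Sirt1 values. Sirt7, which acts on chromatin and ribosomal DNA, had 11 and 15.4 rpbp at ZT0, 16 and 15.7 at ZT4, 13.4 and 8.1 at ZT8, 15.0 and 19.9 at ZT12, 14.1 and 12.1 at ZT16, and 15.3 and 11.6 at ZT20. The 2 libraries of ZT8 were 1.65 times apart, and F24 of Sirt7 was 0.0155 (permutation p = 0.935), the lowest of the 5 tested genes. Sirt6, a histone deacetylase with roles in glucose metabolism and DNA repair, was under the threshold, at 1.9 and 2.7 rpbp at ZT0, 2.5 and 2.3 at ZT4, 1.5 and 1.4 at ZT8, 3.3 and 2.9 at ZT12, 3.2 and 2.1 at ZT16, and 1.9 and 1.8 at ZT20. Both ZT8 libraries of Sirt6 were the lowest of the 12 as deposited. With the GC trend removed they were at 1.61 and 2.28 rpbp, and replicate 2 was then above ZT20 replicate 1, at 1.87.

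Parp1, the PARP that responds to DNA breaks and a large consumer of NAD, was the steadiest of the 8 genes. It had 3.4 and 3.8 rpbp at ZT0, 3.6 and 3.7 at ZT4, 3.7 and 3.1 at ZT8, 3.5 and 3.4 at ZT12, 3.6 and 2.5 at ZT16, and 3.3 and 3.8 at ZT20. The SD over the 12 libraries was 0.106 of the mean, against 0.502 in Nampt and a median of 0.252 over all tested genes. Its lowest value was in ZT16 replicate 2, the library with the lowest median gene.

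Opposite times of day were compared with limma contrasts on log2(rpbp + 1), within libraries run in the same number of lanes. At ZT12 against ZT0, where 4.44% of tested genes passed an adjusted p of 0.05, none of the 5 did. Nadk was the nearest, with 21.2 rpbp against 11.4, a difference of 0.87 ± 0.226 (SE) and an adjusted p of 0.0623 by limma. Nadk passed with the libraries rescaled to equal medians (0.84 ± 0.180, adjusted p = 0.0313 by limma) and with the GC trend removed (0.73 ± 0.148, adjusted p = 0.0264), and without ZT0 replicate 1, its lowest library, the limma difference was 0.60 ± 0.244 with an adjusted p of 0.37. Nampt differed by 0.96 ± 0.382 in the same direction (adjusted p = 0.208 by limma).

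At ZT16 against ZT4, 2.1% of tested genes passed and none of the 5 did. Sirt3 was lower at ZT16 by 0.52 ± 0.196 on the log2 scale, with an adjusted p of 0.193 by limma (unadjusted 0.0242). At ZT20 against ZT8, 1.58% of tested genes passed and again none of the 5. The widest difference was that of Nampt, at 4.80 rpbp against 11, or -1.03 ± 0.382 with an adjusted p of 0.264 by limma (unadjusted 0.0220). Sirt1 had the same mean at ZT20 and ZT8, with a difference of -0.0015 ± 0.188. The SE of these contrasts in the 5 tested genes was 0.188 to 0.382.

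**Figure D3:**
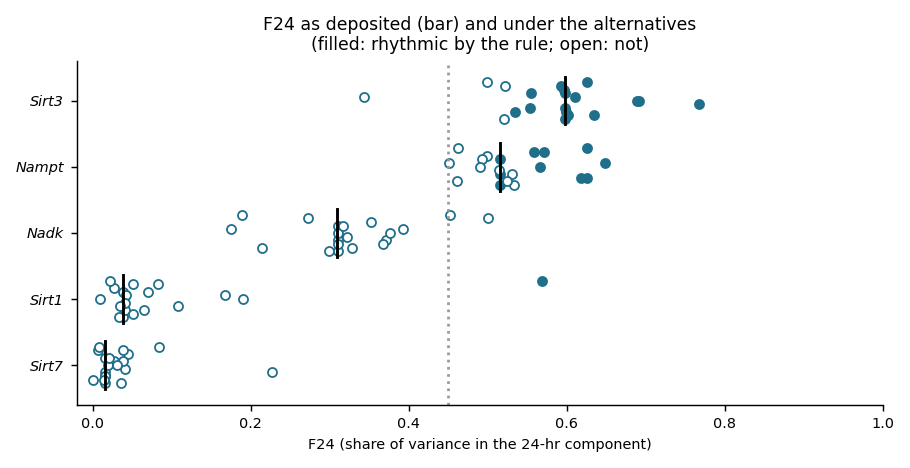
F24 (share of variance in the 24-hr component) of the 5 tested genes as deposited (bar) and under alternatives that kept all time points and both replicate series (points). Points are filled where the gene was rhythmic by the rule and open where not, and the dotted line is the limit of 0.45. The adjusted permutation p, by which none of the 5 was called, leaves F24 as deposited and is not drawn. Sirt3 lies between 0.344 and 0.767 and Nampt between 0.451 and 0.649, while Sirt1 is called once, at 0.569.

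Exon GC content moved with the values of several members in ZT8 replicate 2. In that library Nampt, with the lowest exon GC, lay 1.02 above its mean over the 12 libraries on the log2 scale, the furthest of the 8 genes, and Nmnat1 and Sirt1 lay 0.32 and 0.27 above. Sirt7 and Sirt6, among the genes of highest GC, deviated from their means by -0.69 and -0.43. Sirt3, at 55.5% GC, lay 0.26 above its mean. With the GC trend removed, by subtracting in each library the median log2 deviation of genes of like exon GC (20 bins), the ZT8 values of Nampt became 8.54 and 9.0 rpbp, the time-point means at ZT8, ZT12 and ZT16 were 8.77, 9.26 and 8.84, and F24 was 0.649 with a phase at 12.0 hr (permutation p = 0.0139, adjusted 0.135). Sirt1, also low in GC, met the limits for F24, p and ratio, with F24 of 0.569 and a phase at 14.9 hr (permutation p = 0.0207, adjusted 0.160). The filter of 6 rpbp was applied to the deposited values only. After removal the highest Sirt1 value was 5.78 rpbp, in ZT12 replicate 1, so no library was above 6 rpbp in this form. The time-point means of Sirt1 after removal ran from 3.95 rpbp at ZT4 to 5.55 at ZT12.

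Removing the GC trend had the opposite effect on the call of Sirt3. Its ZT8 values became 27.6 and 35.2 rpbp and its F24 fell to 0.344 (permutation p = 0.139), with a phase of 5.61 hr. ZT16 was still its lowest mean, at 17.5 rpbp, but its libraries were no longer below all others. ZT12 replicate 2 was at 16.5 rpbp and ZT16 replicate 2 at 18.6. Sirt7 and Nadk were not rhythmic in either form, with F24 of 0.0270 and 0.393 after removal. With the time points grouped by the values themselves, all 4 Nampt libraries of ZT8 and ZT12 were above all 6 of ZT0, ZT4 and ZT20 in both forms. The 2 Nampt libraries of ZT16 were far apart, at 3.9 and 10.5 rpbp as deposited and 5.23 and 12.5 with the GC trend removed. Whether GC content is the source of these differences was not tested.

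**Figure D4:**
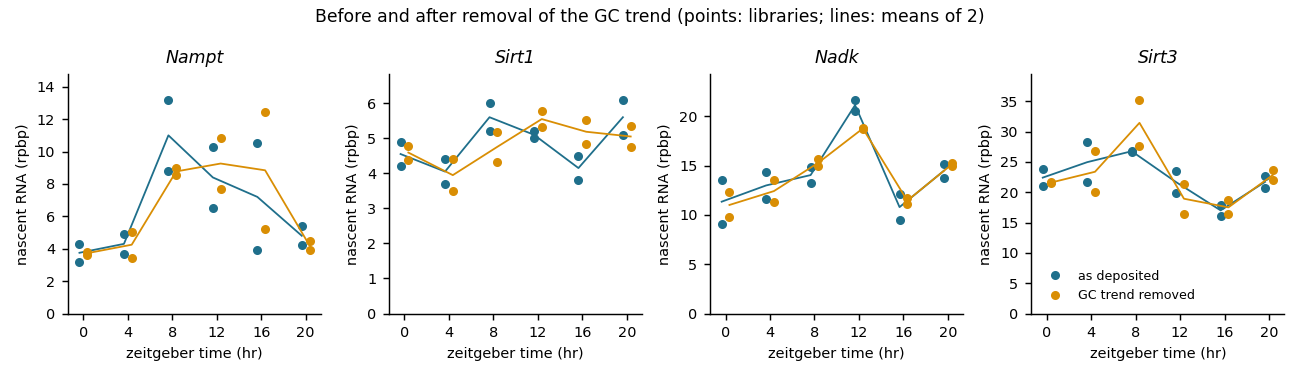
Nascent RNA (rpbp) of Nampt, Sirt1, Nadk and Sirt3 by zeitgeber time, as deposited and after removal of the GC trend, with 1 point per library and lines through the means of 2. The ZT8 mean of Nampt moves from 11 to 8.77 rpbp and that of Sirt3 from 26.8 to 31.4, while Sirt1 loses its raised values at ZT8 and ZT20.

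Markers of other cells were also set beside Nampt, which macrophages express too. The 4 Kupffer cell markers summed to 49.8 and 17.9 rpbp in the 2 libraries of ZT8 and to 42.4 and 43.3 at ZT12, against 26.8 to 31.5 at ZT0 and ZT4, 41.4 and 31.2 at ZT16, and 25.6 and 26.4 at ZT20. The lowest sum of the 12 was in ZT8 replicate 2, where Nampt was highest, at 13.2 rpbp, and where the GC trend was -1.21. The markers did not move alike. Clec4f had its lowest mean at ZT8 (4.05 ± 3.46 rpbp), Adgre1 and Cd5l had their highest there (10.5 ± 9.62 and 14.2 ± 13.6), and Csf1r had neither. The part of Kupffer cells in the Nampt values was not tested. None of the 4 Kupffer cell markers was rhythmic by the rule, and 1, Clec4f, passed the limma F-test (adjusted p = 0.0360). Among the libraries, the 4 endothelial markers summed to 20.7 rpbp in ZT8 replicate 1 and to 8.5 in ZT8 replicate 2, the highest and lowest of the 12.

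The members were related to each other only in part over the 12 libraries. Pearson's r of log2(rpbp + 1) ran from -0.541 (Nampt and Parp1) to 0.688 (Sirt6 and Sirt7) over the 28 pairs. Nampt had r of 0.584 with Sirt1 and -0.0264 with Sirt3. With the GC trend removed, r ran from -0.655 (Sirt3 and Sirt7, -0.101 before) to 0.619 (Sirt3 and Parp1, 0.484 before). Sirt7 and Parp1 changed from 0.342 to -0.637 and Sirt6 and Sirt7 from 0.688 to -0.0566, while Nampt and Sirt1 had 0.570. All pairs share the same 12 libraries and their composition, and these values are a description.

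The 5 tested genes most like Nampt over the 12 libraries, by Pearson's r of log2(rpbp + 1), were Fzd4 (0.907), Ivns1abp (0.893), Akr1c19 (0.891), mKIAA0896 (0.886) and Nrg4 (0.885), with phases from 9.40 to 11.4 hr. Their F24 was 0.455, 0.591, 0.245, 0.414 and 0.83 in that order, where a rhythmic call needs more than 0.45. Fzd4 encodes a Wnt receptor and Nrg4 a secreted growth factor of the EGF family. The 5 most like Sirt3 were Uox (0.915), Rwdd3 (0.894), 8430408G22Rik (0.893), Acbd5 (0.890) and Ckap5 (0.886), with phases from 3.79 to 6.77 hr. Their F24 was 0.726, 0.572, 0.444, 0.497 and 0.387 in that order. Uox encodes urate oxidase and Acbd5 a protein of the peroxisome membrane. Uox was at 74.6 rpbp on average. These genes are the top of 6284 by the measure that ranks them, so phases near that of the member come with the ranking.

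The other genes of the NAD pathway were described by lists. Of 31 such genes, all in the table, 21 were tested and 2 were rhythmic, Kynu and Naprt, beside 15.2% of all tested genes. The limma F-test called 2 others, Afmid and Nnmt, beside 7.65%. Each of these calls was lost without some single library: Kynu kept its call in 5 of 12 such fits, Naprt in 4, Afmid in 9 and Nnmt in 3. None had an adjusted permutation p under 0.05, and the median F24 of the 21 was 0.308, against 0.310 for the 5 members and 0.222 over all tested genes.

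In the route from tryptophan, which makes NAD anew in the liver, 8 of 8 genes were tested. Kynu, kynureninase, had its phase at 23.6 hr (F24 0.536, permutation p = 0.0406, adjusted 0.279), with means of 62.3 ± 7.92 rpbp at ZT20 and 30.9 ± 11.4 at ZT12, so it was high when Nampt was low. Afmid, the kynurenine formamidase, was at 29.9 ± 2.40 rpbp at ZT12 and 5.20 ± 2.12 at ZT0 (adjusted p = 0.0151 by the limma F-test), with its highest mean at ZT12, the same time point as Nadk. The genes of this route covered a wide range of levels, from 4.48 rpbp in Acmsd to 121 in Tdo2, the first enzyme of the route.

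In the routes from nicotinic acid and nucleosides, 3 of 8 genes were tested. Naprt, listed as Naprt1, which starts the nicotinic acid route, had its phase at 16.7 hr (F24 0.538, permutation p = 0.0402, adjusted 0.278), with means of 21.6 ± 1.06 rpbp at ZT16 and 9.70 ± 0.424 at ZT8. At 15.3 rpbp on average its level was above that of Nampt. The Nmnat paralogs differed: Nmnat3, the mitochondrial form, averaged 3.95 rpbp, near the 3.38 of Nmnat1, and Nmnat2, known from neurons, had at most 0.2 in any library.

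Of the 4 genes of nicotinamide clearance and NADP supply, all tested, none was rhythmic and Nnmt passed the F-test. Nnmt, which methylates nicotinamide and so removes the substrate of Nampt, was at 34.4 ± 16.1 rpbp at ZT12 and 7.15 ± 4.03 at ZT8 (adjusted p = 0.0427 by the limma F-test), with F24 at 0.444, just under the limit. This call was kept in 6 of 19 alternatives and lost, among others, after rescaling (adjusted p = 0.0618 by limma), with the GC trend removed (0.0705), with 0.1 in place of 1 added before taking logs (0.0545) and with no filter (0.134). Of 3 other sirtuins, 2 were tested and neither was called by either test, at means of 3.34 rpbp in Sirt2, 4.68 in Sirt4 and 4.86 in Sirt5, all well under Sirt3. Of 8 other PARPs and NAD glycohydrolases, 4 were tested and none was called by either test. Parp2, the closest relative of Parp1 in function, averaged 3.09 rpbp, and Cd38, an NAD glycohydrolase, 1.97.

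Clock genes and their direct targets give a scale for these values. All 5 clock references, Nr1d1, Dbp, Per1, Per2 and Arntl, were strongly rhythmic, with F24 from 0.627 to 0.884 and phases of 6.22, 8.38, 12.8, 14.3 and 22.5 hr in that order. The phase of Nampt, 10.8 hr, lay between those of Dbp and Per1, and that of Sirt3, 5.26 hr, before that of Nr1d1. Livers were taken every 4 hr and replicate 1 alone put Sirt3 at 7.4 hr, so the order of Sirt3 and Nr1d1 is not settled. The highest value of Nampt was 4.13 times its lowest and that of Sirt3 1.75 times, whereas Nr1d1 ran from 1.0 to 40.6 rpbp and Dbp from 2.3 to 50.5.

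**Figure D5:**
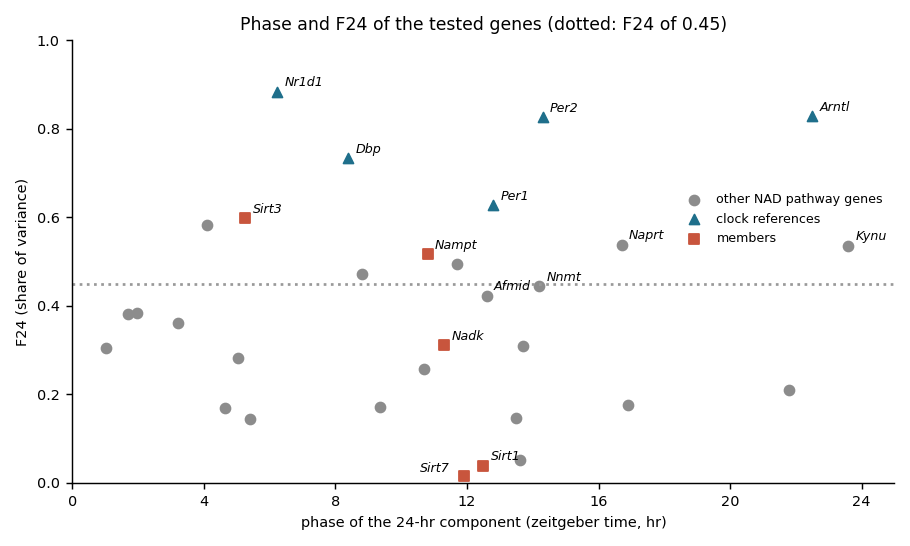
Phase of the 24-hr component (zeitgeber time, hr) and F24 of the 5 tested members, 21 other tested genes of the NAD pathway and 5 clock references, with 1 point per gene. Sirt3 and Nampt lie above the dotted limit of 0.45, below all 5 clock references, and Nadk, Sirt1 and Sirt7 lie under it.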

How the data were processed

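The authors aligned reads to mm9 with TopHat (the submitters' processing notes also name CASAVA 1.7), and deposited the signal per gene symbol as rpbp over merged exons, without strand, scaled to equal numbers of uniquely mapped reads and rounded to 1 decimal. The deposited F24, phase and p-value columns of the authors were not used. Because this signal is not a count, no count model was fitted, and depth was not estimated here. The 27919 blank lines of the table were dropped.

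The 8 genes and the lists were chosen with earlier results of these data known. Named beside them were genes of the lists called by either test and the 5 genes most correlated with each rhythmic member. F24 was tested with 100000 permutations, and time points with limma 3.58.1 (R 4.3.3) on log2(rpbp + 1), both over 6284 genes above 6 rpbp with Benjamini-Hochberg adjustment. F24 permutation tests are one-sided. Exon GC was known for 88.7% of these. Python 3.11.15 was used, and both tests were tried on simulated data. Alternatives were other thresholds, pseudocounts, scaling, GC removal, blocks and left-out libraries.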

Additional observations from a re-analysis of the deposited data

How the results depend on the processing

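Nampt was called rhythmic in 10 of 23 alternatives and Sirt3 in 17 of 23, of which 3 each changed only the filter, and Nadk and Sirt7 in none. Of the members, 2 were rhythmic as deposited, and 0 after rescaling, in replicate series 1 alone, by adjusted permutation p and by a limma F-test of cosine and sine terms, and 1 in series 2 alone. Without single libraries, 0 to 2 were. All tested genes called rhythmic (956 as deposited) numbered 508 at a threshold of 12 rpbp, 2225 with no filter, 260 and 171 in series 1 and 2 alone, 42 by adjusted permutation p and 163 by the cosine F-test. Time-point differences (481 genes) numbered 133 with no filter and 170 (without ZT0 replicate 1) to 638 without single libraries, with 0 to 1 members.

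ZT12 against ZT0 called 1 member, Nadk, after rescaling and 1 after GC removal, and 26 (without ZT0 replicate 1) to 388 genes of all tested without single libraries (279 with all). ZT16 against ZT4 called 84 genes at 12 rpbp, 24 with no filter and 22 (without ZT4 replicate 1) to 253 (without ZT16 replicate 1) without single libraries (132 with all). ZT20 against ZT8 called 45 with no filter and 4 (without ZT20 replicate 1) to 166 (without either ZT16 library) without single libraries (99 with all). The cause was not tested. The order of member levels had 4 separated pairs in every alternative.

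The study describes the libraries as 2 independent series of 6 time points, and the main fits did not take the replicate numbers as pairs. The correlation over genes of replicate differences between 2 time points was above 0.1 in 5 of 15 pairs of time points (-0.117 to 0.320). It was 0.225 for ZT8 and ZT16, 0.320 for ZT8 and ZT20 and 0.202 for ZT16 and ZT20. These values do not show that the series can be ignored, so fits with the series as a block are given too. With the replicate block, 2 members and 975 genes were rhythmic, and no member was called by the F-test or a contrast. F24 of Nampt was then 0.626 (0.516 without the block) and its limma F-test adjusted p 0.0881 (0.163 without). Library depths were not used here, and the 3 genes under 6 rpbp had no test of time of day at that threshold.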
